A study of Mus musculus with 16 samples.

Results

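The genes described here are the enzymes and the main regulator of fatty acid oxidation in the mouse striatum. They were chosen by name, 9 of the 20730 genes in the tables: Cpt1a, Cpt2, Acadl, Acadm, Acadvl, Hadha, Hadhb, Acaa2 and Ppara. RNA was taken from the striata of 8 adult C57BL/6N mice, and all of them carried a RiboTag virus, which expresses the ribosomal protein Rpl22 with a hemagglutinin tag in astrocytes. An additional virus expressed a control protein in 4 mice (control mice) and hPMCA2w/b, a human plasma membrane calcium pump used to suppress calcium signals, in the other 4 (PMCA mice). Each mouse gave a library of the cleared lysate (input) and a library of RNA precipitated with the tagged ribosomes (IP), so there were 16 libraries in 4 groups of 4. The sources used here do not give the promoters of the viruses, the sex of the mice or the interval after injection.

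Long-chain fatty acids enter mitochondria as carnitine esters. Cpt1a makes these esters at the outer membrane, which is the rate-limiting entry step, and Cpt2 turns them back into acyl-CoA inside. Each turn of beta-oxidation then starts with an acyl-CoA dehydrogenase (Acadvl, Acadl and Acadm, for very long, long and medium chains), goes on with the trifunctional protein of Hadha and Hadhb for long chains, and ends with a thiolase such as Acaa2. Ppara is a nuclear receptor that binds fatty acids and drives transcription of many of these genes in liver and heart. In brain, fatty acid oxidation is known mainly as a pathway of astrocytes rather than of neurons.

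Input libraries held 32.3 to 40.9 M reads in total and IP libraries 46.8 to 58.5 M. The lowest count of any of the 9 genes in any library was 139 reads, for Cpt2 in a control input. Levels are given as log2 CPM, the logarithm of the read count scaled to the depth of the library, and a difference of 1 is a doubling. Transcript lengths were not used here, so levels were not compared between genes. In bulk RNA, fewer cells of a type and less RNA per cell cannot be told apart. All 15 astrocyte markers were higher in IP than in input in both treatments (median log2 difference 3.18 in control and 3.22 in PMCA mice), all 12 microglial, all 10 endothelial and all 10 striatal projection neuron markers were lower, and none of these markers was at 0 reads throughout a group. Not all other lists were lower in IP. In control mice 6 of 8 ependymal and choroid plexus markers were higher and 1 lower (median 2.19). The counts were 5 and 0 of 6 for oligodendrocyte precursor (0.67) and 4 and 1 of 10 for oligodendrocyte markers (0.39). They were 3 and 5 of 8 for mural (-1.81) and 2 and 7 of 10 for general neuron markers (-0.63). Over all genes tested in control mice, 39.1% were higher and 38.4% lower. Rpl22, the gene of the tagged protein, averaged 9.80 ± 0.15 log2 CPM in control IP (SD over 4 mice) against 8.11 ± 0.11 in PMCA IP, and it was lower in PMCA mice in both fractions (-1.69 in IP, adjusted p = 1.92e-05, and -0.88 in input, adjusted p = 0.000489). Animal numbers in the labels fall into a lower set (control 1 to 3, PMCA 1 and 2) and a higher set (control 4, PMCA 3 and 4), which was tried as a block. The effect of the pump and that of the lower Rpl22 level in PMCA mice cannot be told apart.

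The region upstream of the start site is shown for 4 of the genes, picked by their values below. Cpt1a had the highest IP over input ratio in most mice. Cpt2 was called higher in PMCA mice in the IP, as were 9.54% of all genes tested. All 4 PMCA libraries of Hadhb lay below the control range in the IP, as for 14.2% of all genes. Those of Ppara lay above it in the input, as for 4.99% of all genes. Neither Hadhb nor Ppara was called. Sequences are RefSeq's for GRCm38.p6, whose coordinates are those of mm10, and each holds the 250 bases before the start site, 5′ to 3′ on the strand of the gene. The start sites of Cpt1a and Ppara in that table lie inside the annotated gene, downstream of an alternative start. Capitals mark AGGTCA (the hexamer bound by nuclear receptors), CCAAT or GGGCGG (the GC box), on either strand.
Cpt1a, chr19:3323051-3323300, plus strand: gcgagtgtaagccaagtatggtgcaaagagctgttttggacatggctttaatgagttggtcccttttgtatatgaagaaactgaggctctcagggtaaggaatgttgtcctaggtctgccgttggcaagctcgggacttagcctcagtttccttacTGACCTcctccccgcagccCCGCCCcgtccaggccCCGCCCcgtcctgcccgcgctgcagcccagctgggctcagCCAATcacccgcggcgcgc
Cpt2, chr4:107923590-107923839, minus strand: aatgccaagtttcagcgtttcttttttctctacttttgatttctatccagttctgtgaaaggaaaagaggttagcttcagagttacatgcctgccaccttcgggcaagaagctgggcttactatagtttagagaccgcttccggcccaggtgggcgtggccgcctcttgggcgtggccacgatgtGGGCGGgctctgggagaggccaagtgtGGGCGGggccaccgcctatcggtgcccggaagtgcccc
Hadhb, chr5:30155003-30155252, plus strand: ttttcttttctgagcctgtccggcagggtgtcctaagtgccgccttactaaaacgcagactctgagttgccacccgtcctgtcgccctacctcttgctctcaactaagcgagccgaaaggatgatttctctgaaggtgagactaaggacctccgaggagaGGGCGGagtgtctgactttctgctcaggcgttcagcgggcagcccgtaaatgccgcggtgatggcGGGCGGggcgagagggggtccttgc
Ppara, chr15:85735526-85735775, plus strand: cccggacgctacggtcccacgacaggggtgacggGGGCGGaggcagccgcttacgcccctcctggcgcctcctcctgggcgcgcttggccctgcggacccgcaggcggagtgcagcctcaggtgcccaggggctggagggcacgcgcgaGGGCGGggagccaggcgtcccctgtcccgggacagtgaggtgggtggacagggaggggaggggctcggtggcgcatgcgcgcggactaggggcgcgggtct

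RefSeq promoter windows (250 bases before to 50 after the start) were matched for 8 of the 9 genes, all but Acaa2. GGGCGG was found, on either strand, in 6 of the 8 windows (Acadl, Cpt1a, Cpt2, Hadha, Hadhb and Ppara), against 35.7% of all 32851 promoter windows. AGGTCA was found in 3 of the 8 (Acadm, Acadvl and Cpt1a), against 16.3% of all windows. In Cpt1a it lies on the minus strand, as TGACCT in the sequence printed above. The spaced repeat bound by Ppara with its partner RXR (2 copies of AGGTCA with 1 base of any kind between them) was in 0 of the 8 windows and in 0.0396% of all windows. TCAAGGTCA, which contains AGGTCA, and TATAAA were in 0 of the 8 as well, against 0.423% and 13.6% of all windows. CCAAT was in the Cpt1a window alone (37.4% of all windows). The member windows held between 9 and 34 CpG dinucleotides, against a median of 7 over all windows. On the same build, Cpt1a spans bases 3322326 to 3385735 of chromosome 19, Cpt2 107903982 to 107923589 of chromosome 4, Acadl 66830839 to 66863309 of chromosome 1, Acadm 153922353 to 153944643 of chromosome 3, Acadvl 70010183 to 70015428 of chromosome 11 and Ppara 85734910 to 85806851 of chromosome 15. Hadha and Hadhb lie head to head on chromosome 5 (Hadha on the minus strand from 30119423 to 30154980, Hadhb on the plus strand from 30155253 to 30184593), with 272 bases between their starts, and their windows share 228 bases.

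All 9 genes were higher in IP than in input, in both treatments. The log2 difference ranged from 1.72 for Hadha to 3.02 for Cpt1a in control mice, or 3.29-fold to 8.09-fold, and from 1.77 to 2.96 in PMCA mice. Of all genes tested, 39.1% were called higher in IP and 38.4% lower in control mice, and 37.4% and 39.3% in PMCA mice (adjusted p under 0.05, limma with Benjamini-Hochberg adjustment over all genes tested). The 4 IP libraries lay above the 4 inputs for all 9 genes, and so did those of 37% of all genes in control mice and 35.6% in PMCA mice. The median difference of the 9 genes was 2.26 in control mice and 2.18 in PMCA mice, against -0.0025 and -0.041 over all genes tested. Summed over the 9 genes, inputs held 256 to 281 CPM in control and 260.0 to 268 CPM in PMCA mice, and IP libraries held 1101 to 1331 and 1134 to 1310 CPM.

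**Figure D1:**
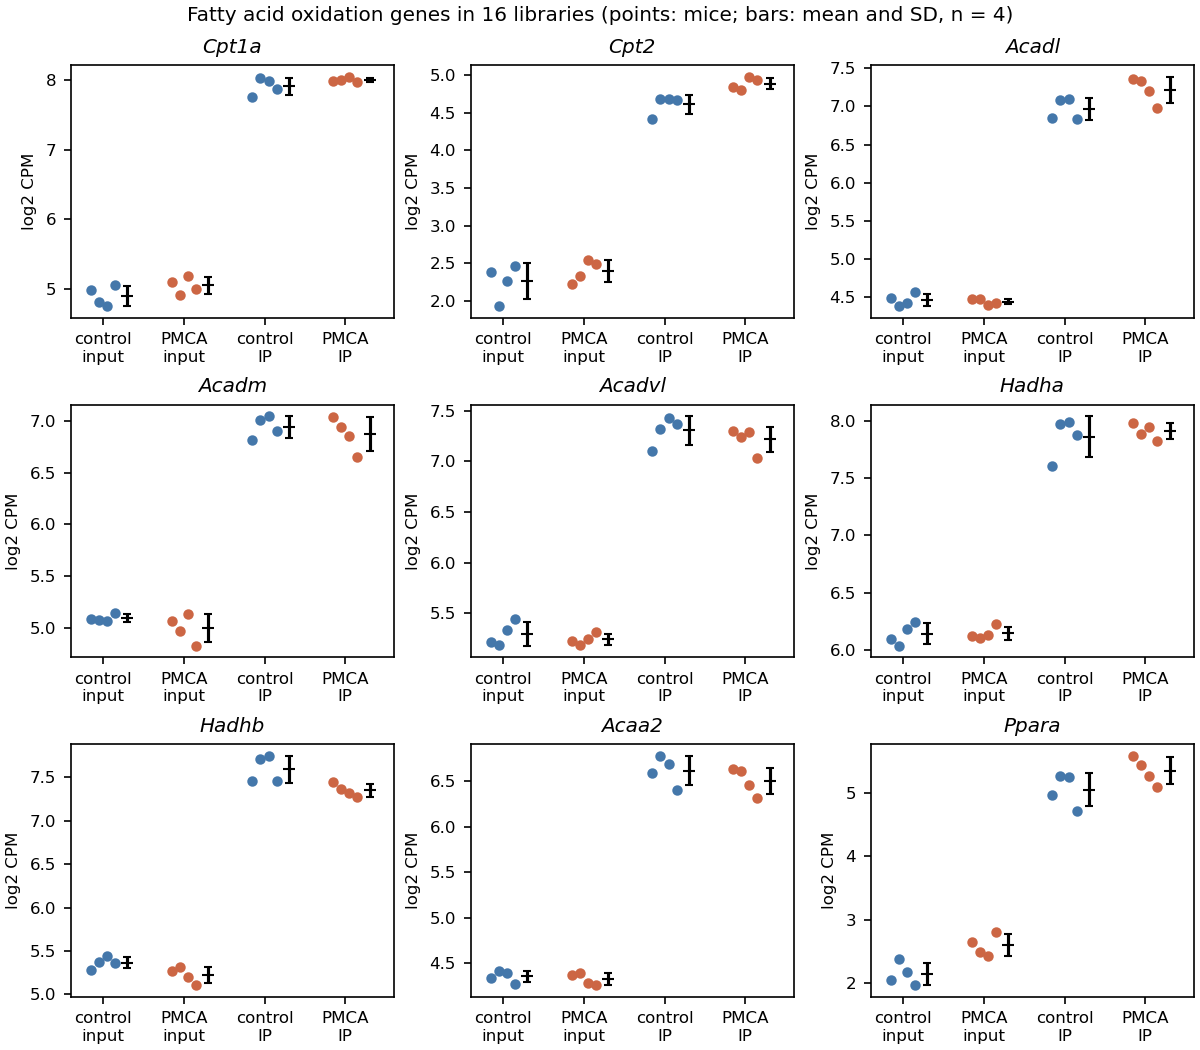
Level of each of the 9 genes in the 16 libraries, as log2 CPM on the vertical axis, with 1 point per mouse and bars for the mean and SD of each group of 4, for input and IP in control and PMCA mice. In every panel the IP points lie above all input points, while the control and PMCA ranges of a fraction overlap except for Cpt2 and Hadhb in IP and Ppara in input.

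Between treatments the differences were far smaller. In the IP, Cpt2 was called higher in PMCA mice and none of the 9 was called lower, against 9.54% of all 15748 genes called higher and 10.1% called lower. Without adjustment, 3 of the 9 had p under 0.05 by limma (Cpt2, Acadl and Hadhb), as did 5520 of all 15748 genes. In the input none of the 9 was called in either direction, against 0.362% of 16306 genes called higher and 0.0797% lower. There, 2 of the 9 had an unadjusted p under 0.05 by limma, as did 3152 of all 16306 genes. Limma with voom weights on the recovered reads also called 0 of the 9 in the input. The median log2 difference of the 9 genes was 0.050 in IP (-0.012 over all genes) and -0.023 in input (-0.0061 over all genes).

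Cpt1a rose most from input to IP. Its 4 control inputs were at 4.98, 4.81, 4.75 and 5.05 log2 CPM and its 4 control IP libraries at 7.76, 8.03, 7.99 and 7.87. PMCA inputs were at 5.10, 4.91, 5.18 and 4.999 and PMCA IP libraries at 7.99, 8.00, 8.05 and 7.97. The IP libraries thus stood apart from the inputs, and within each fraction the treatments overlapped. The log2 difference between IP and input was 3.02 (SE 0.082, adjusted p = 4.92e-10) in control and 2.96 (SE 0.062, adjusted p = 9.56e-11) in PMCA mice. Mouse by mouse it was 2.78, 3.22, 3.25 and 2.82 in the control mice and 2.90, 3.09, 2.87 and 2.97 in the PMCA mice, and Cpt1a ranked 1 or 2 among the 9 genes in every mouse. The PMCA effect on Cpt1a was 0.091 in IP (95% confidence interval -0.065 to 0.25, adjusted p = 0.388) and 0.15 in input (-0.024 to 0.32, adjusted p = 0.323).

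Cpt2, which acts at the inner membrane after Cpt1a, was the member called between treatments. Control IP libraries were at 4.42, 4.68, 4.68 and 4.67 log2 CPM and PMCA IP libraries at 4.84, 4.81, 4.98 and 4.93. All 4 PMCA values lay above all 4 control values, as they did for 11.3% of all genes tested. The log2 difference was 0.28 (SE 0.080, 95% confidence interval 0.10 to 0.46, limma adjusted p = 0.0354), or 1.21-fold. The call was close to the threshold and held in 8 of 19 alternatives. Leaving out 1 library at a time, Cpt2 passed only without control 4 (adjusted p = 0.0478) and otherwise had an adjusted p up to 0.1, and with the set of animal numbers as a block the difference was 0.25 (adjusted p = 0.0503) or, with control 4 placed by its other label, 0.21 (adjusted p = 0.176). In the inputs Cpt2 was at 2.39, 1.93, 2.27 and 2.47 in control and 2.22, 2.33, 2.55 and 2.49 in PMCA mice, which overlapped, with a difference of 0.14 (SE 0.13, adjusted p = 0.611). The rise from input to IP was 2.35 (SE 0.12, adjusted p = 2.48e-08) in control and 2.49 (SE 0.087, adjusted p = 1.89e-09) in PMCA mice.

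None of the 3 acyl-CoA dehydrogenases was called between treatments. Acadl, the long-chain enzyme, was at 6.85, 7.09, 7.10 and 6.84 log2 CPM in control IP and 7.36, 7.33, 7.20 and 6.98 in PMCA IP. The lowest PMCA library, that of PMCA 4, lay inside the control range and the other 3 lay above it. The difference was 0.25 (SE 0.100, adjusted p = 0.105), and it passed in 3 of 19 alternatives: without PMCA 4 (0.33, adjusted p = 0.0232), with the set of animal numbers as a block (0.30, adjusted p = 0.0293) and in a fit over all 16 libraries (adjusted p = 0.0299). The fit over all 16 libraries pools IP and input, which differ in spread, and treats both libraries of a mouse as separate. The main fits that compare IP with input, or the PMCA effects between fractions, do the same. With the block and control 4 placed by its other label the Acadl difference was 0.38 (limma adjusted p = 0.0511). In the inputs Acadl was at 4.49, 4.38, 4.43 and 4.57 in control and 4.48, 4.47, 4.40 and 4.42 in PMCA mice, a difference of -0.023 (adjusted p = 0.867). Within mice, the difference between IP and input was 2.36, 2.71, 2.67 and 2.27 in control and 2.88, 2.86, 2.80 and 2.56 in PMCA mice. Acadl rose from input to IP by 2.50 (SE 0.077, adjusted p = 8.31e-10) in control and 2.77 (SE 0.079, adjusted p = 5.27e-10) in PMCA mice. The difference between these rises was the largest of the 9 genes, at 0.27 (SE 0.12, unadjusted p = 0.0311, limma adjusted p = 0.249), and did not pass the test.

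Acadm, the medium-chain enzyme, was at 6.81, 7.01, 7.04 and 6.90 log2 CPM in control IP and 7.04, 6.94, 6.86 and 6.65 in PMCA IP. These ranges overlapped, with a difference of -0.070 (SE 0.089, adjusted p = 0.613). Its inputs were at 5.09, 5.07, 5.06 and 5.15 in control and 5.07, 4.96, 5.13 and 4.82 in PMCA mice (-0.094, adjusted p = 0.455). Acadvl, the very-long-chain enzyme, was at 7.11, 7.32, 7.43 and 7.37 in control IP and 7.30, 7.25, 7.29 and 7.04 in PMCA IP, again overlapping, with a difference of -0.089 (SE 0.087, adjusted p = 0.503). Its inputs were at 5.21, 5.18, 5.34 and 5.44 in control and 5.22, 5.19, 5.24 and 5.31 in PMCA mice (-0.052, adjusted p = 0.675). The rise from input to IP was 1.85 and 1.87 for Acadm and 2.02 and 1.98 for Acadvl in control and PMCA mice, with adjusted p between 1.16e-09 and 2.02e-08.

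Hadha and Hadhb, the subunits of the trifunctional protein, are transcribed from opposite strands of the shared region described above. Hadhb was at 7.45, 7.71, 7.74 and 7.46 log2 CPM in control IP and 7.45, 7.37, 7.32 and 7.27 in PMCA IP. All 4 PMCA values lay below all 4 control values, as for 14.2% of all genes tested, with the highest PMCA value (7.447) just under the lowest control value (7.454). The difference was -0.24 (SE 0.083, 95% confidence interval -0.43 to -0.057, limma adjusted p = 0.0665), which did not pass. By limma it passed with total reads as the scale (-0.26, adjusted p = 0.0454), without control 1 (adjusted p = 0.0426) and without control 4 (adjusted p = 0.0491). It also passed in a fit over all 16 libraries (adjusted p = 0.0181). That fit pools the spread of IP and input, and with it the IP calls over all genes went from 3088 to 4691. In the inputs Hadhb was at 5.28, 5.38, 5.44 and 5.37 in control and 5.27, 5.32, 5.20 and 5.11 in PMCA mice (-0.14, SE 0.058, adjusted p = 0.214).

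Hadha was at 7.60, 7.97, 7.99 and 7.88 log2 CPM in control IP and 7.98, 7.89, 7.95 and 7.82 in PMCA IP, and the ranges overlapped (0.050, SE 0.089, adjusted p = 0.726). Its inputs were at 6.10, 6.04, 6.18 and 6.25 in control and 6.12, 6.10, 6.13 and 6.23 in PMCA mice (0.0041, adjusted p = 0.977). Hadha had the smallest rise from input to IP of the 9 genes (1.72 in control mice, SE 0.087, adjusted p = 2.13e-08), and Hadhb had a larger one (2.23, SE 0.077, adjusted p = 1.61e-09). Hadha ranked 8 or 9 in every mouse, against 5 to 7 for Hadhb.

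The ratio of Hadha to Hadhb within a library was looked at after their values were seen and is given without a test. In control IP its log2 was 0.15, 0.26, 0.25 and 0.42 (mean 0.27 ± 0.11, SD, n = 4), and in PMCA IP 0.53, 0.52, 0.63 and 0.55 (mean 0.56 ± 0.048). Inputs were at 0.82, 0.66, 0.74 and 0.88 in control and 0.85, 0.78, 0.93 and 1.12 in PMCA mice. The ratio was lower in IP than in input in all 8 mice, and in the IP the PMCA libraries did not overlap the control libraries. Such a separation is common: among all pairs of 14308 genes, 24.5% had IP ratios that did not overlap between treatments. The ratio of Acadl to Acadm also separated the IP groups, with log2 values of 0.033, 0.085, 0.056 and -0.062 in control and 0.32, 0.39, 0.34 and 0.33 in PMCA mice, while input ratios averaged -0.63 ± 0.049 and -0.55 ± 0.14. The ratio of Cpt2 to Cpt1a also did not overlap between the IP groups (control up to -3.20, PMCA from -3.19) and averaged -3.30 ± 0.070 in control IP and -3.12 ± 0.069 in PMCA IP, and -2.63 ± 0.17 and -2.65 ± 0.16 in the inputs. Such a ratio does not depend on the scale of the library, and it says only that the genes differed unequally.

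**Figure D2:**
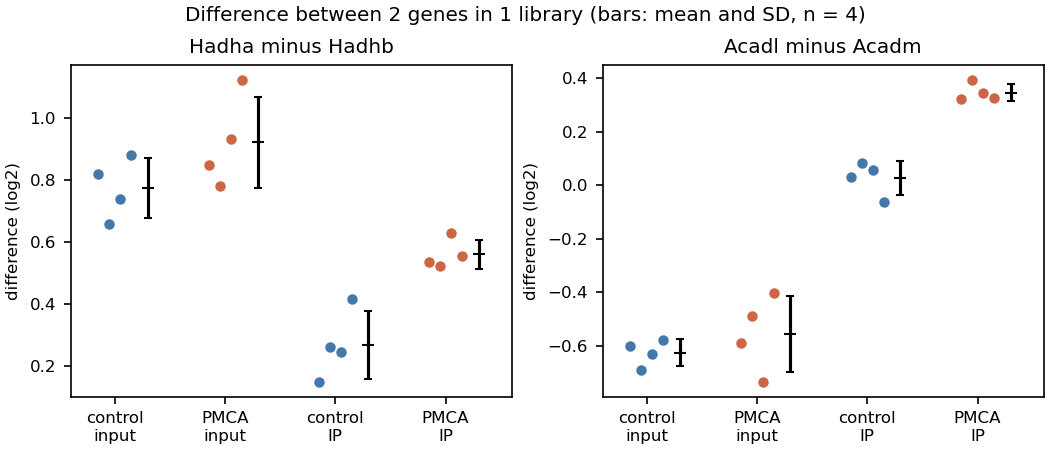
Log2 difference between paired genes within each library (Hadha minus Hadhb, and Acadl minus Acadm) on the vertical axis, with 1 point per mouse and bars for the mean and SD of the 4 mice of a group. In the IP, PMCA values of the ratio of Hadha to Hadhb lie between 0.52 and 0.63 and control values between 0.15 and 0.42.

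Acaa2, the thiolase of the last step, was at 6.59, 6.78, 6.68 and 6.41 log2 CPM in control IP and 6.63, 6.61, 6.45 and 6.32 in PMCA IP. The groups overlapped, with a difference of -0.11 (SE 0.096, adjusted p = 0.446). Its inputs were at 4.34, 4.41, 4.40 and 4.27 in control and 4.37, 4.40, 4.28 and 4.26 in PMCA mice (-0.028, adjusted p = 0.835). The rise from input to IP was 2.26 (SE 0.079, adjusted p = 1.72e-09) in control and 2.18 (SE 0.075, adjusted p = 1.6e-09) in PMCA mice.

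Ppara, the receptor, had the largest difference of the 9 genes between the inputs. Control inputs were at 2.05, 2.38, 2.18 and 1.97 log2 CPM and PMCA inputs at 2.65, 2.49, 2.42 and 2.81. All 4 PMCA inputs lay above all 4 control inputs, as for 4.99% of all genes tested. The difference was 0.45 (SE 0.12, 95% confidence interval 0.18 to 0.72, unadjusted p = 0.00397, limma adjusted p = 0.113) and did not pass. It passed with the set of animal numbers as a block (0.47, adjusted p = 0.0453), not with control 4 placed by its other label (0.43, adjusted p = 0.307), and with the sex read from the libraries as a covariate (0.45, adjusted p = 0.042). In the IP, control libraries were at 4.97, 5.27, 5.25 and 4.72 and PMCA libraries at 5.59, 5.45, 5.27 and 5.10, which overlapped, with a difference of 0.30 (SE 0.14, adjusted p = 0.159). With the set of animal numbers as a block the IP difference was 0.39 (adjusted p = 0.0168), and with control 4 placed by its other label 0.46 (adjusted p = 0.0816). The rise from input to IP was 2.91 (SE 0.14, adjusted p = 1.13e-08) in control and 2.76 (SE 0.12, adjusted p = 8.61e-09) in PMCA mice, and in PMCA 4 it was 2.29 against 2.75 to 3.07 in the other 7 mice.

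**Figure D3:**
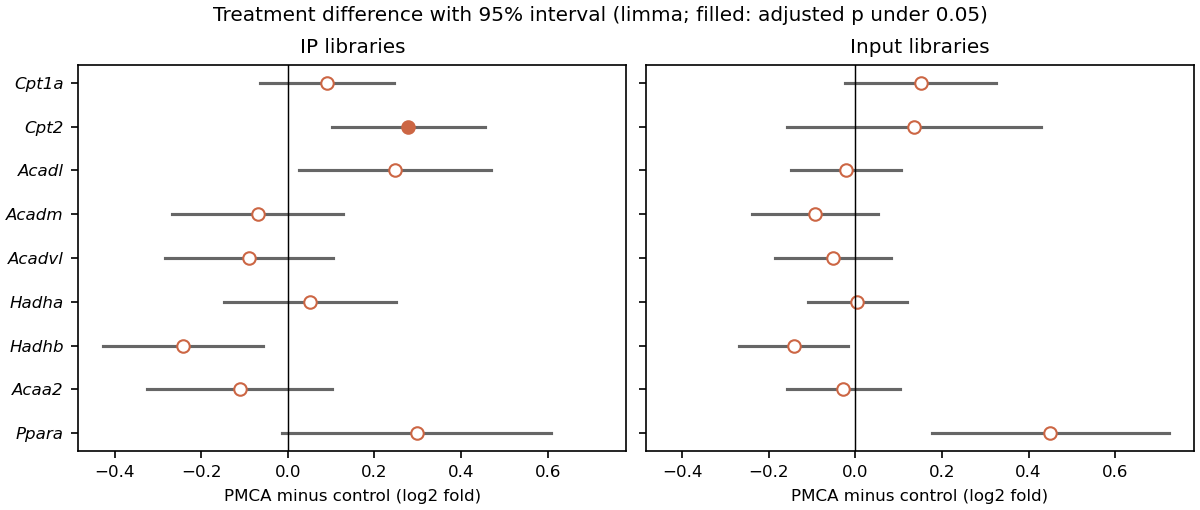
Log2 difference between PMCA and control mice for each gene, in IP and in input, on the horizontal axis, with bars for the 95% confidence interval of the limma fit. The Cpt2 interval in IP (0.10 to 0.46) is the one whose adjusted p passed; the Acadl and Hadhb intervals in IP and the Hadhb and Ppara intervals in input also leave out 0 but did not pass after adjustment over all genes.

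No gene of the 9 passed the test of the difference between the PMCA effect in IP and that in input, where 0.972% of 16673 genes were called higher and 1.06% lower. By limma 1 of the 9, Acadl, had an unadjusted p under 0.05, as did 2711 of all 16673 genes. Voom weights on the recovered reads also gave 0 calls among the 9. A call in IP but not in input, as for Cpt2, is therefore not shown to differ between the fractions (Cpt2 difference 0.14, adjusted p = 0.708).

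In order of the rise from input to IP in control mice, Cpt1a and Ppara came first, followed by Acadl, Cpt2, Acaa2, Hadhb, Acadvl, Acadm and Hadha. In control mice the range over 4 mice overlapped between neighbours in this order, except between Ppara (2.75 to 3.07) and Acadl (2.27 to 2.71), and in PMCA mice these genes overlapped as well (2.29 to 2.96 and 2.56 to 2.88). At the ends of the order, the lowest control mouse for Cpt1a (2.78) lay above the highest for Hadha (1.94).

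**Figure D4:**
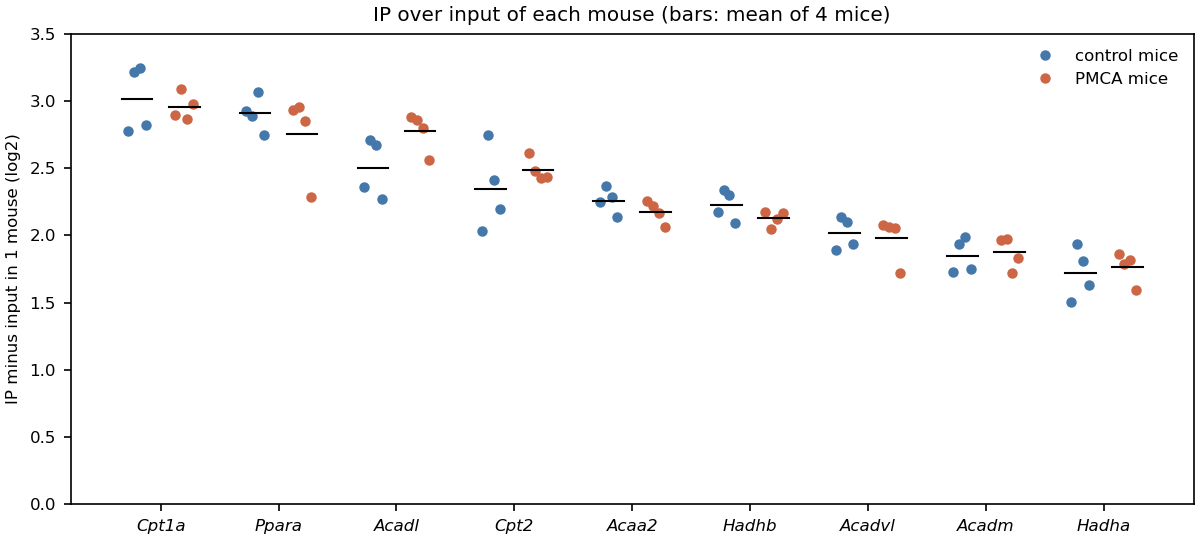
Log2 difference between IP and input of the same mouse on the vertical axis for each of the 9 genes, with 1 point per mouse and a line at the mean of 4 control (blue) or 4 PMCA (orange) mice. Cpt1a lies between 2.78 and 3.25 in all 8 mice and Hadha between 1.504 and 1.94.

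Within a group, the 9 genes mostly deviated in the same direction in the IP libraries. Deviations from the group means were correlated over the 8 libraries of a fraction, which share each library's depth, scale and dissection. In the IP the median Pearson r over the 36 pairs was 0.72, from -0.18 for Cpt2 and Acaa2 to 0.97 for Acaa2 and Ppara, and 34 pairs were above 0. In the input the median was -0.035 and 17 pairs were above 0. The 15 astrocyte markers gave similar values, with a median of 0.655 over 105 pairs in IP and 0.068 in input, while over all 102352278 pairs of 14308 genes 51181449 were above 0 in IP and 51282784 in input. The difference between the fractions was not tested. Among control IP libraries, control 1 was lowest for 6 of the 9 genes and control 4 for the other 3. Among PMCA IP libraries, PMCA 4 was lowest for 8 and PMCA 1 highest for 7. These ranks were not counted over all genes.

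Genes with the most similar profile over the 16 libraries were ranked by Pearson r of log2 CPM among 14308 genes, a measure that mostly reads the split between IP and input. The mean profile of the 9 genes was closest to Ddah1 (r = 0.9995), and Glud1 (0.9993), Acot11 (0.9992) and Capn2 (0.9991) were among the 5 closest genes. For single members the closest gene was Add3 for Cpt1a (0.9989), Lgi4 for Cpt2 (0.9978), Bcan for Acadl (0.9991), Ddo for Acadm (0.9979), Cd81 for Acadvl (0.9985), Ezr for Hadha (0.9983), Pla2g7 for Hadhb (0.9993), Ppargc1a for Acaa2 (0.9986) and Egfl6 for Ppara (0.9962). Among the members themselves the closest pair was Acadvl and Hadha (0.9973), and Ppara was least like any other (0.9876, with Acadl).

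The rest of the pathway was read from lists that include the members. Paired values below are log2 differences between IP and input, in control mice and then in PMCA mice. Counts of calls are to be read against 39.1% of all genes higher and 38.4% lower in control mice. In PMCA mice these shares were 37.4% and 39.3%. Of the carnitine transfer genes, 7 of 7 tested were higher in IP in control mice (median 1.53) and 6 of 7 in PMCA mice (1.51). Crot, the peroxisomal acyltransferase, rose by 2.62 and 2.63, and Slc25a20, the carrier of acylcarnitines, by 1.53 and 1.51. Cpt1b, the muscle form, did not pass the filter on low counts. Cpt1c, the form known from neurons, rose by 0.44 (adjusted p = 2.41e-05) in control mice and had a difference of 0.13 (adjusted p = 0.0545) in PMCA mice.

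Of 22 mitochondrial beta-oxidation genes, 21 were higher in IP in control mice (median 1.79) and 22 in PMCA mice (1.81). Hadh, the short-chain hydroxyacyl-CoA dehydrogenase, rose by 2.24 and 2.33, and Acads, the short-chain acyl-CoA dehydrogenase, by 2.23 and 2.19. Acad10 was the gene that did not pass in control mice (0.072, adjusted p = 0.627). Peroxisomal genes were higher in 14 and 13 of 15, with medians of 1.02 in both. All 5 ketone body genes were higher in both, with medians of 0.79 and 0.80, among them Bdh1, a hydroxybutyrate dehydrogenase (1.29 and 1.16).

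Fatty acid synthesis genes were higher in IP as well. Of 12 genes 11 were higher in both treatments, with medians of 2.18 and 2.18, led by Fads2, a fatty acid desaturase (2.83 and 2.87), and the list included Srebf1, the regulator of lipid synthesis (2.63 and 2.60). Acyl-CoA synthesis and uptake genes were mixed. In control mice 8 of 14 were higher and 4 lower, with Acsf2 at 3.38 and Acsbg1 at 3.19, against Cd36, the fatty acid translocase, at -3.61 and Fabp3 at -0.70. In PMCA mice 8 were higher and 5 lower.

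Among 15 regulators, 6 were higher and 3 lower in control mice (median 0.072), against 39.1% and 38.4% of all genes. In PMCA mice 8 were higher and 4 lower (0.18), against 37.4% and 39.3% of all genes. Besides Ppara, Ppargc1a, a coactivator of Ppara, rose by 1.37 and 1.28, and Acacb, whose product malonyl-CoA inhibits Cpt1a, by 2.42 and 2.49. Pparg, the adipose form of the receptor, was lower in IP by 0.87 and 1.10 on the log2 scale. Its mean levels were low, at -0.12 and -0.24 log2 CPM in input and -0.99 and -1.34 in IP. Other PPAR target genes were higher in 12 of 16 in control mice and 11 in PMCA mice, led by Pdk4, a kinase that inhibits pyruvate dehydrogenase (3.04 and 3.14). With total reads as the scale the median of all genes moved from -0.0025 to -0.28 in control and from -0.041 to -0.35 in PMCA mice, and the share of calls that were higher went from 50.5% to 34.9% and from 48.8% to 32.6%. All 9 members remained higher in IP on that scale.

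**Figure D5:**
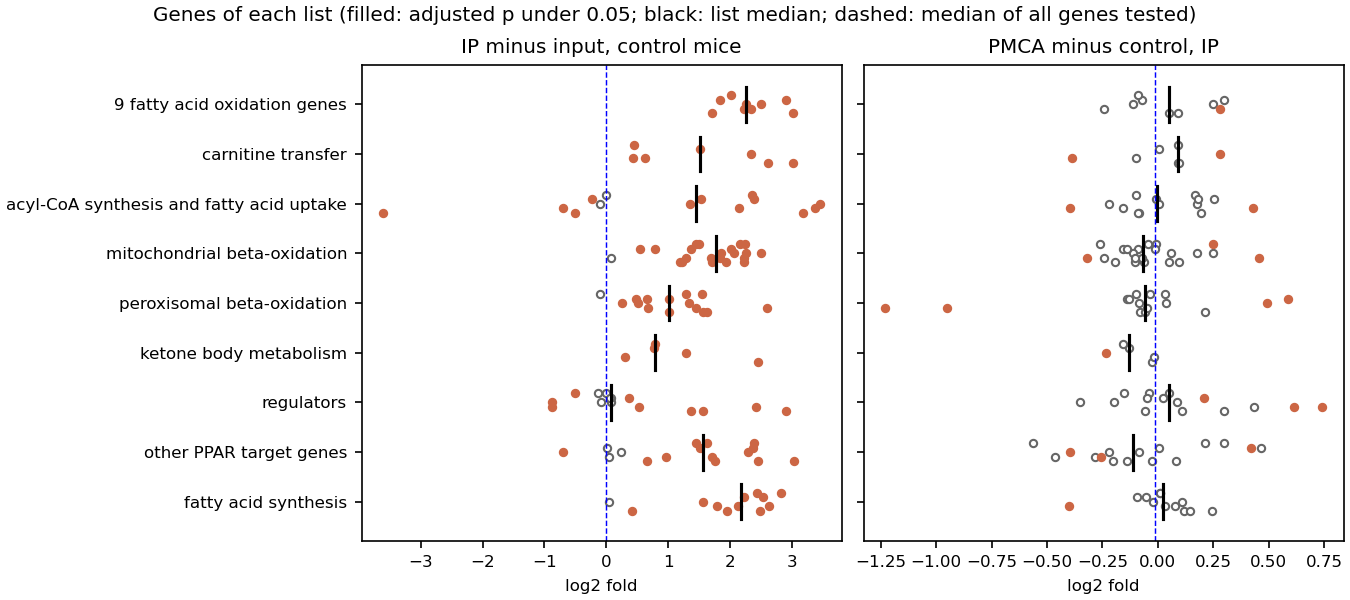
Log2 difference between IP and input (left) and between PMCA and control mice in IP (right) for each list, on the horizontal axis, with 1 point per gene tested (filled where the adjusted p was under 0.05), the list median as a black bar and the median of all genes tested as a dashed line. On the left the 9 genes have a median of 2.26 and all are filled; on the right they lie around 0 and Cpt2 alone is filled.

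Between treatments, some genes of these lists were called in the IP. In the input none of the pathway lists had a call, against 0.362% of all genes called higher and 0.0797% called lower. In the IP the carnitine transfer list had 1 higher and 1 lower of 7, the mitochondrial list 2 higher and 1 lower of 22, the peroxisomal list 2 and 2 of 15, and the synthesis list 0 and 1 of 12, to be read against 9.54% and 10.1% of all genes. Acyl-CoA synthesis and uptake had 1 and 1 of 14, and other PPAR targets 1 and 2 of 16. List medians lay between -0.13 (ketone body metabolism, 0 higher and 1 lower of 5) and 0.091 (carnitine transfer).

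Cpt1c stood out against Cpt2 within carnitine transfer. Control IP libraries were at 6.86, 6.88, 6.79 and 6.97 log2 CPM and PMCA IP libraries at 6.45, 6.51, 6.59 and 6.40. All PMCA values lay below the control values, as for 14.2% of all genes tested. The gene fell, with a log2 difference of -0.39 (SE 0.064, limma adjusted p = 0.00452). Its PMCA effect was lower in IP than in input (-0.31, adjusted p = 0.0425). General neuron markers were also lower in these libraries: 8 of 10 fell in PMCA IP (median -0.49), against 10.1% of all genes. Their summed level was 2998 to 4007 CPM in control IP against 2381 to 2652 in PMCA IP. Striatal projection neuron markers, the other neuronal list, had 1 lower and 0 higher of 10 (median -0.097), with overlapping sums of 2309 to 4118 CPM in control IP and 2448 to 3680 in PMCA IP. The part of neuronal RNA in the Cpt1c result was not tested.

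Among the regulators, 3 of 15 were higher in PMCA IP and none lower, against 9.54% and 10.1% of all genes tested. Ppard, the widely expressed relative of Ppara, was at 3.38, 3.23, 3.41 and 3.52 log2 CPM in control IP and 4.42, 4.12, 4.18 and 3.78 in PMCA IP. All PMCA values lay above the control values, as for 11.3% of all genes tested. The Ppard difference was 0.74 (SE 0.13, limma adjusted p = 0.0054). Its effect was larger in IP than in input (0.80, adjusted p = 0.0417), a call that, like that of Cpt1c, held in 6 of 16 alternatives. Acacb was at 3.99, 4.00, 3.95 and 3.76 in control IP and 4.69, 4.60, 4.58 and 4.29 in PMCA IP, a difference of 0.62 (SE 0.098, adjusted p = 0.00422), and its difference in input was 0.54 (adjusted p = 0.087). Ncor1, a corepressor of nuclear receptors, rose by 0.21 (adjusted p = 0.043) and was the least stable of the 3, passing in 8 of 19 alternatives, against 19 of 19 for Ppard and Acacb.

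In the other lists, Acox3, a peroxisomal oxidase (0.49, adjusted p = 0.00355), rose in PMCA IP. Acaa1b, a peroxisomal thiolase (-1.23, adjusted p = 0.00887), and Acox2 (-0.95, adjusted p = 0.0264) fell, from low mean levels of -0.28 and 0.17 log2 CPM in control IP. Of the mitochondrial list Acad10 (0.45, adjusted p = 0.0185) and Etfa, which takes electrons from the dehydrogenases (0.25, adjusted p = 0.0499), rose and Ech1, an auxiliary isomerase (-0.32, adjusted p = 0.0136), fell. Acly, which makes cytosolic acetyl-CoA for lipid synthesis, was at 9.90, 9.999, 9.85 and 9.79 log2 CPM in control IP and 9.38, 9.61, 9.49 and 9.45 in PMCA IP. Acly fell in the IP, with a log2 difference of -0.40 (SE 0.079, limma adjusted p = 0.00876). In the input its difference was 0.0012 (adjusted p = 0.988). The PMCA effect in IP minus that in input was -0.40 (limma adjusted p = 0.022). Acsf2 (0.43, adjusted p = 0.024) and Ucp3 (0.42, adjusted p = 0.0164) rose, and Bdh1 (-0.24, adjusted p = 0.0279), Fabp3 (-0.40, adjusted p = 0.0379) and Acot13 (-0.26, adjusted p = 0.0363) fell. Over the 19 alternatives these calls were of unequal stability: Acox3 and Acly passed in all 19, Acsf2 in 13, Bdh1 in 12, Acot13 in 9, Fabp3 in 8 and Etfa in 7. For Acaa1b, Acox2, Acad10, Ech1 and Ucp3, and for the Acly difference between fractions, no such count is given here.

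Markers of other cells also differed between the IP groups. Their counts are to be read against 9.54% of all genes called higher and 10.1% called lower. Astrocyte markers were higher in 4 of 15 (median 0.18), with summed levels of 38130 to 50050 CPM in control IP and 50150 to 59480 in PMCA IP. Slc1a2 has the highest CPM of this list and weighs most in the sum (mean 14.53 log2 CPM in control IP and 14.94 in PMCA IP). It was not called (0.40, limma adjusted p = 0.223). Microglial markers were higher in 5 of 12 (median 0.85), with summed levels of 67.3 to 86.8 CPM in control IP and 86.1 to 139 in PMCA IP, against 1363 to 2181 CPM in the inputs. Endothelial markers were higher in 4 and lower in 1 of 10 (19.6 to 25.5 CPM and 21.3 to 27.4 CPM). Mural markers were higher in 2 and lower in 2 of 8 (129 to 147 CPM and 137.0 to 152 CPM). The oligodendrocyte, oligodendrocyte precursor and ependymal lists, with medians of 0.069, -0.14 and -0.46, had no member called by limma. In the inputs, astrocyte markers were higher in 2 of 15 (median 0.13), against 0.362% of all genes. Their sums were 4040 to 4164 CPM in control and 4533 to 4832 in PMCA mice. The summed level of the 9 genes overlapped between treatments in both fractions. The part of these markers in the values of the 9 genes was not tested.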

How the data were processed

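The deposited files hold log2 CPM for 20730 genes, 1 file per library. The tools named per the submitters' processing notes are STAR, HTSeq, edgeR and limma, with genome build mm10; for versions, roles, annotation and strand handling, not given in the sources used here, nothing was assumed, and reads of overlapping or antisense genes may be shared. Undoing the authors' log2 and their prior count of 0.25 gave whole reads for every value, within 0.001. From the deposited values, 5 comparisons were fitted with limma (version 3.58.1, R 4.3.3): a linear model per gene, mean-variance trend, two-sided, Benjamini-Hochberg over all genes tested, threshold 0.05. Only the libraries compared entered, and all 16 for the difference between fractions. Genes entered with at least 10 reads, at median library size, in at least 4 libraries. A simulation with known changes checked the fit.

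The members, pathway and marker lists were chosen with earlier results of these data known. All 9 members were named throughout, and other genes by size of change among those called, up to 4 a list and direction, or as neighbours in the pathway. The listing holds 189 genes, of which 187 were in the files. Some genes that these rules would name are not reported here, though the counts include them. By the labels, each input shares its animal with 1 IP; their deviations correlated with r of 0.11 to 0.33 (8 pairs), against -0.20 to 0.078 for different mice (24 pairs), over 16673 genes. Alternatives were the animal as a block, scaling, prior count, filter, trend, weights, animal number sets, sex by Xist and Ddx3y, and each library left out. Control 4 carries different animal numbers in its labels, and its other placement was tried after seeing the data. Each mouse is a separate animal.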

Additional observations from a re-analysis of the deposited data

Results flagged for a closer look

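Cpt2 in control IP library 1 was at 4.42 log2 CPM, while the other 3 control IP libraries were at 4.67 to 4.68; the gap to the nearest library was 0.943 of the range of the group, above Dixon's 95% critical value for 4 samples. It was the 1 such case among the 36 combinations of 9 genes and 4 groups, and chance alone flags about 1 in 20. Without that library the Cpt2 difference in IP was 0.21 (adjusted p = 0.0567), against 0.28 with it.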

How the results depend on the processing

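All 9 genes were higher in IP than in input under every alternative run in both treatments, and with the replicate block (the animal) the count was 9 of 9 in both (Cpt1a 3.02, adjusted p = 7.4e-10, in control mice). The block also left 0 members called for the difference between fractions and changed no other call of a member. No pairing across treatments exists.

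For PMCA against control in IP, the main count was 1 higher and 0 lower. Members higher were 0 without the mean-variance trend, 2 with the animal number set as a block and 0 with control 4 placed by its source name; members lower were 1 with total reads and 1 with a fit over all 16 libraries, where Acadl passed (adjusted p = 0.0299) and Cpt2 did not (0.0638). Leaving out 1 library gave 0 to 1 higher and 0 to 1 lower. In input, 1 member was higher with the animal number set as a block and 1 with sex as a covariate, against 0.

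Signs turned only for members not called. With control 4 by source name, the IP differences of Acadm and Acaa2 became 0.046 and 0.0058, and in input those of Acadl, Hadha and Acaa2 became 0.010, -0.030 and 0.027. The number set gave Hadha -0.021 in input, and total reads gave Acadm -0.0067 for the difference between fractions. Leaving out 1 library spanned -0.036 to 0.094 (Hadha) and -0.13 to 0.0027 (Acadm) in IP, -0.031 to 0.039 (Hadha) and -0.051 to 0.012 (Acadl) in input, and -0.018 to 0.074 (Acadm), -0.026 to 0.12 (Hadha), -0.14 to 0.017 (Cpt1a), -0.077 to 0.048 (Acadvl) and -0.22 to 0.0042 (Ppara) for the difference between fractions. The cause was not tested.

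Over all genes, calls in IP went from 3088 to 4691 with 16 libraries and 1699 with control 4 by source name, and lay between 1702 (without control 2) and 3606 (without PMCA 4) leaving out 1 library. In input, 72 became 868 with the number set, 786 with sex, 47 with 16 libraries, 32 by source name, 27 without the filter and 13 without the trend, and lay between 4 (without PMCA 1) and 1352 (without control 4) leaving out 1 library. For the difference between fractions, 339 became 23 without control 2 and 466 with the animal as a block. In the main fit 47.8% of calls were higher, against 33.7% with total reads and 59.7% with the block.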
